A study of Mus musculus with 75 samples.

Results

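The mitotic spindle and M-phase genes described here are 43 genes whose products take a cell through mitosis, out of 26218 genes in the expression table of the series. They were taken by name: each row of the table whose symbol stood on a list of known M-phase genes was taken, and all 43 symbols were found. The list itself was chosen with earlier results of these data known. By role they comprise 6 genes of the cyclin B-Cdk1 engine, 6 mitotic kinases and chromosomal passenger proteins, 5 spindle checkpoint genes, 4 genes of anaphase and the anaphase-promoting complex, 6 centromere and kinetochore genes, 7 spindle motors and microtubule proteins, 7 genes of the central spindle and cytokinesis, and 2 genes of chromosome structure. All 43 passed the filter on low values in each of the 3 replicated experiments.

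The study examined how bone morphogenetic protein and retinoic acid act on female germ cell fate in the mouse, with SC3-seq, which counts the 3′ ends of transcripts from small amounts of RNA. Its 75 libraries come from germ cells of embryos and from PGC like cells (PGCLCs), germ cells derived from ESCs. The embryo experiment had 22 libraries, 2 per group, of the strain ICR:C57BL/6=1:1. Fetal oocytes and prospermatogonia at E14.5 and E15.5 carried Ddx4-RFPTg/0 and were sorted as RFP(+); primordial germ cells at E9.5 to E11.5 (no sex given) and at E12.5 and E13.5 (female and male) carried Dppa3-EGFPTg/0 and were sorted as GFP(+). Both sexes thus have another reporter from E14.5 on, and reporter and stage cannot be told apart between E13.5 and E14.5. The sexes share a reporter at each stage. The first PGCLC experiment used a 129S1:C57BL/6=1:1 line with Prdm1-mVenusTg/0 and Dppa3-ECFPTg/0. It had 2 libraries each of RB, RA and CT cultures on culture days 5, 7 and 9, 2 of CT on day 3, 2 of day 0 cells sorted as BV(+), and 1 labelled 0R3B on day 9. The second used a DBA/2:C57BL/6=1:1 line with the same reporters. It set knockout (KO) cells, Stra8-/-, of the lines SK1 (2 libraries a day), SK2 and SK3, against 2 wild-type (WT) libraries a day, sampled in CT on day 3 and in RB on days 5, 7 and 9. A C57BL/6 line with those reporters and Gtrosa26tm1Sor/0 gave 6 groups of 1 library, d4c0 on day 0, c0RB and c0CT on day 2, c7 on day 7, and c7RB and c7CT on day 9, of which values of the last pair are given without a test. The labels do not spell out CT, RA, RB, 0R3B or the c0 and c7 names. By the labels, factors towards the female fate were added on culture day 3, the feeder cells were m220 cells treated with mitomycin C, and the cultured cells were sorted as SC(+).

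Entry into M phase is driven by cyclin B bound to the kinase Cdk1, and exit requires that the anaphase-promoting complex, with Cdc20 and the ubiquitin-conjugating enzyme Ube2c, marks cyclin B and securin for destruction. The spindle checkpoint holds that complex in check until every kinetochore is attached, and the chromosomal passenger complex corrects faulty attachments and later directs cytokinesis. In the fetal gonad, female germ cells leave the mitotic cycle for meiotic prophase, whereas male germ cells arrest in the cell cycle as prospermatogonia.

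Levels are in RPM as deposited, reads scaled to a common library total, and they are not compared between genes. The depth read back from the smallest steps of the values was 1080201 to 15624927 reads per library, so that 3 reads amount to 0.192 to 2.78 RPM; these floors cover counting error only. Differences were tested with limma on log2(RPM + 1) over all genes of an experiment, a scale that understates the change of genes at low levels, and ± after a log2 fold change is its standard error. Calls needed both an adjusted p under 0.05 (Benjamini-Hochberg, over all genes tested) and a log2 fold change of 1 or more in size, and "rose" or "fell" is kept for such calls. In bulk RNA such as this, fewer cells in M phase and less RNA per cell cannot be told apart. The labels do not say whether libraries of a group came from separate animals or cultures, so p-values measure the spread between these libraries, which may be technical.

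Many promoters of M-phase genes hold a CHR, the element TTTGAA that the DREAM and MuvB complexes bind, and CCAAT boxes, which NF-Y binds. Here a CHR means the letters TTTGAA only, and other forms of the element were not searched for. Promoter entries of RefSeq (build GRCm38.p6, 250 bases before to 50 bases after each annotated start) matched 37 of the 43 genes, with 40 promoters; Ccna2, Cdc25c, Aurkb, Incenp, Tpx2 and Kif20a had none. A CHR on either strand was found in 31 of these 40 promoters (77.5%), against 17.9% of all 32851 promoters of that length, and in the 100 bases around the start it was found in 28 of 40 (70.0%) against 4.94%. A CCAAT box on either strand was found in 77.5% against 37.4%, and 2 or more of them in 52.5% against 11.7%. The E2F element TTCCCGC, on either strand, was found in 0 of 40, against 4.60%, which says only that these letters are not in these windows. The CHR and a CCAAT box shared a base in 1 of the 40 promoters. The stretches from 150 bases before to 30 bases from the start are printed for the 7 genes on which the results turn: Ccnb1, Ube2c and Bub3, which were low in E15.5 female germ cells, and Bub1, Kif23, Top2a and Mki67, which were higher there than in male germ cells. They lie, on GRCm38.p6, for Ccnb1 at chr13:100786457-100786636 (minus strand), Ube2c at chr2:164769779-164769958 (plus strand), Bub3 at chr7:131560220-131560399 (plus strand), Bub1 at chr2:127831830-127832009 (minus strand), Kif23 at chr9:61946770-61946949 (minus strand), Top2a at chr11:99024160-99024339 (minus strand) and Mki67 at chr7:135716350-135716529 (minus strand). Each is written 5′ to 3′ along the gene, and capitals mark the CHR (TTTGAA or, for the other strand, TTCAAA) and the CCAAT box (CCAAT or ATTGG).
Ccnb1: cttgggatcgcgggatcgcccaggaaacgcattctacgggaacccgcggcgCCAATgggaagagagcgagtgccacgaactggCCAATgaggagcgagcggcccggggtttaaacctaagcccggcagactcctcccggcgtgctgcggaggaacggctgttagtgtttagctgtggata
Ube2c: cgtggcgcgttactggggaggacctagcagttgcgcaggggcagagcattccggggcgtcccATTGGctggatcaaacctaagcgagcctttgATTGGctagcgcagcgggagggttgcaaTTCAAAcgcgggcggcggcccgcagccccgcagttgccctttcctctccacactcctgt
Bub3: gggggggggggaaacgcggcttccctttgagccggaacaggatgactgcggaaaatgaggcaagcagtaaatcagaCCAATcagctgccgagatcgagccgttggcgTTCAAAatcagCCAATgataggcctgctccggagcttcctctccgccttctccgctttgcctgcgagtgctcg
Bub1: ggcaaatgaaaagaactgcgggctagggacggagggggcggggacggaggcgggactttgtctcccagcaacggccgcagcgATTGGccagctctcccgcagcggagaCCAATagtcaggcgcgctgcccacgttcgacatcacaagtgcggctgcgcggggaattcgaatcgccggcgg
Kif23: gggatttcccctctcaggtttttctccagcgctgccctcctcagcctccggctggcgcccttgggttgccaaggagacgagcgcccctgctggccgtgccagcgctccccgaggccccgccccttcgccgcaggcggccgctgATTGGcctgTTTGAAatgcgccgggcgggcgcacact
Top2a: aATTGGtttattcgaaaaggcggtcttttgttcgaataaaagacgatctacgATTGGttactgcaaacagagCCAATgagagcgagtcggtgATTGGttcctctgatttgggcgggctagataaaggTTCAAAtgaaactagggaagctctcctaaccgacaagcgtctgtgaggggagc
Mki67: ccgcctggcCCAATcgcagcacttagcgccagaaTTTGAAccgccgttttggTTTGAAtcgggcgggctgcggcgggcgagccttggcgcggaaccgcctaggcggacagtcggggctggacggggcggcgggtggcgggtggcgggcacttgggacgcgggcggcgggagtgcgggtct
Bub3, Ube2c, Kif23 and Top2a hold a CHR within 50 bases of the start, and Mki67 holds 2 farther upstream of the start of its entry. The RefSeq gene of Mki67 reaches upstream of that start, to chr7:135716450, so this distance depends on the start chosen. The entries of Ccnb1 and Bub1 hold CCAAT boxes and no TTTGAA on either strand, and other forms of the CHR were not looked for in them. A match of letters is a description, not a bound site.

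Up to E13.5 few M-phase genes were called in the tests run, which set E13.5 against E12.5 and the sexes against each other. E9.5 to E11.5 were not tested against each other, nor E12.5 or E13.5 against E11.5. Without a test, Aurkb had 133 and 134 RPM at E11.5 and 60.8 and 66.3 RPM in E12.5 female libraries. Ttk had 79.5 and 79.2 RPM at E11.5 and 114 and 113 RPM in E12.5 female libraries. The summed level of the 43 was 6219 to 6324 RPM at E9.5, 6591 to 6710.5 at E10.5 and 6705 to 6881 at E11.5. In female libraries it was 6701 to 6932 RPM at E12.5 and 6210.1 to 6588 RPM at E13.5, and in male libraries 7046 to 7289.9 RPM at E12.5 and 6599 to 6705 RPM at E13.5. None of the 43 was called between E13.5 and E12.5 in female libraries, where 5.86% of all genes tested were called. There limma gave 9 members an unadjusted and 1 an adjusted p under 0.05. Between the sexes none was called at E13.5 either, against 16.7% of all genes. Here limma gave 19 members an unadjusted and 16 an adjusted p under 0.05, and these 16 were short of the size of a call. On the log2 scale, female less male, Ccnb1 differed by -0.47, Aurkb by -0.78, Cdk1 by -0.34, Plk1 by -0.15 and Mki67 by -0.26. Cdc25b, a phosphatase that activates Cdk1, gave the calls of the remaining comparisons of these stages. It was higher in female libraries at E12.5, with 6.61 and 5.65 RPM in female and 2.23 and 1.03 RPM in male libraries (log2 fold change 1.47 ± 0.37; 6.53% of all genes called). It rose in male libraries at E13.5 against E12.5, to 5.08 and 6.56 RPM (1.4 ± 0.37; 4.34% called). Both calls were lost when E12.5 male replicate 2 was left out (1.14 and 1.07), the first also without E12.5 female replicate 1 (1.38). The second was lost without E13.5 male replicate 1 (1.56) or 2 (1.25) too, all on the adjusted p. The 1.03 RPM of E12.5 male replicate 2, used in both, lies within the 3-read floors of embryo libraries, 0.676 to 1.12 RPM.

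The summed level of the 43 dropped between E13.5 and E14.5, in both sexes. In female germ cells 18 of the 43 fell and 1, Bub1, rose at E14.5 against E13.5, whereas 19% of all genes tested were called lower and 16.5% higher. In male germ cells 23 fell and 1, Pttg1, rose, against 13.3% lower and 19% higher among all genes. Both counts of falls lie above the share of all genes, and both counts of rises below it. The summed level was 4241 to 4291 RPM in female and 3543 to 3598 RPM in male libraries at E14.5, and 3819 to 4329 RPM in female and 3616 to 3704 RPM in male libraries at E15.5. At E15.5 against E14.5 fewer were called: Ccnb1, Cdc25b, Aurkb, Ube2c and Cenpa fell in female libraries (4.91% of all genes called in either direction). In male libraries Cdc25b rose by 1.49 on the log2 scale (1.91% of all genes called). Of the female calls, Ccnb1 and Aurkb held without each library in turn, whereas Cenpa was at -0.91 and Ube2c at -0.81 without E15.5 female replicate 2, Ube2c also at -0.77 without E14.5 female replicate 1. Cdc25b was lost without E15.5 female replicate 2 (-0.74) or E14.5 female replicate 1 (-1.31) or 2 (-1.20). The male call of Cdc25b was lost without any 1 of the 4 libraries, at 1.4 and 1.58 without E14.5 male replicates 1 and 2 and at 1.62 and 1.36 without E15.5 male replicates 1 and 2.

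**Figure D1:**
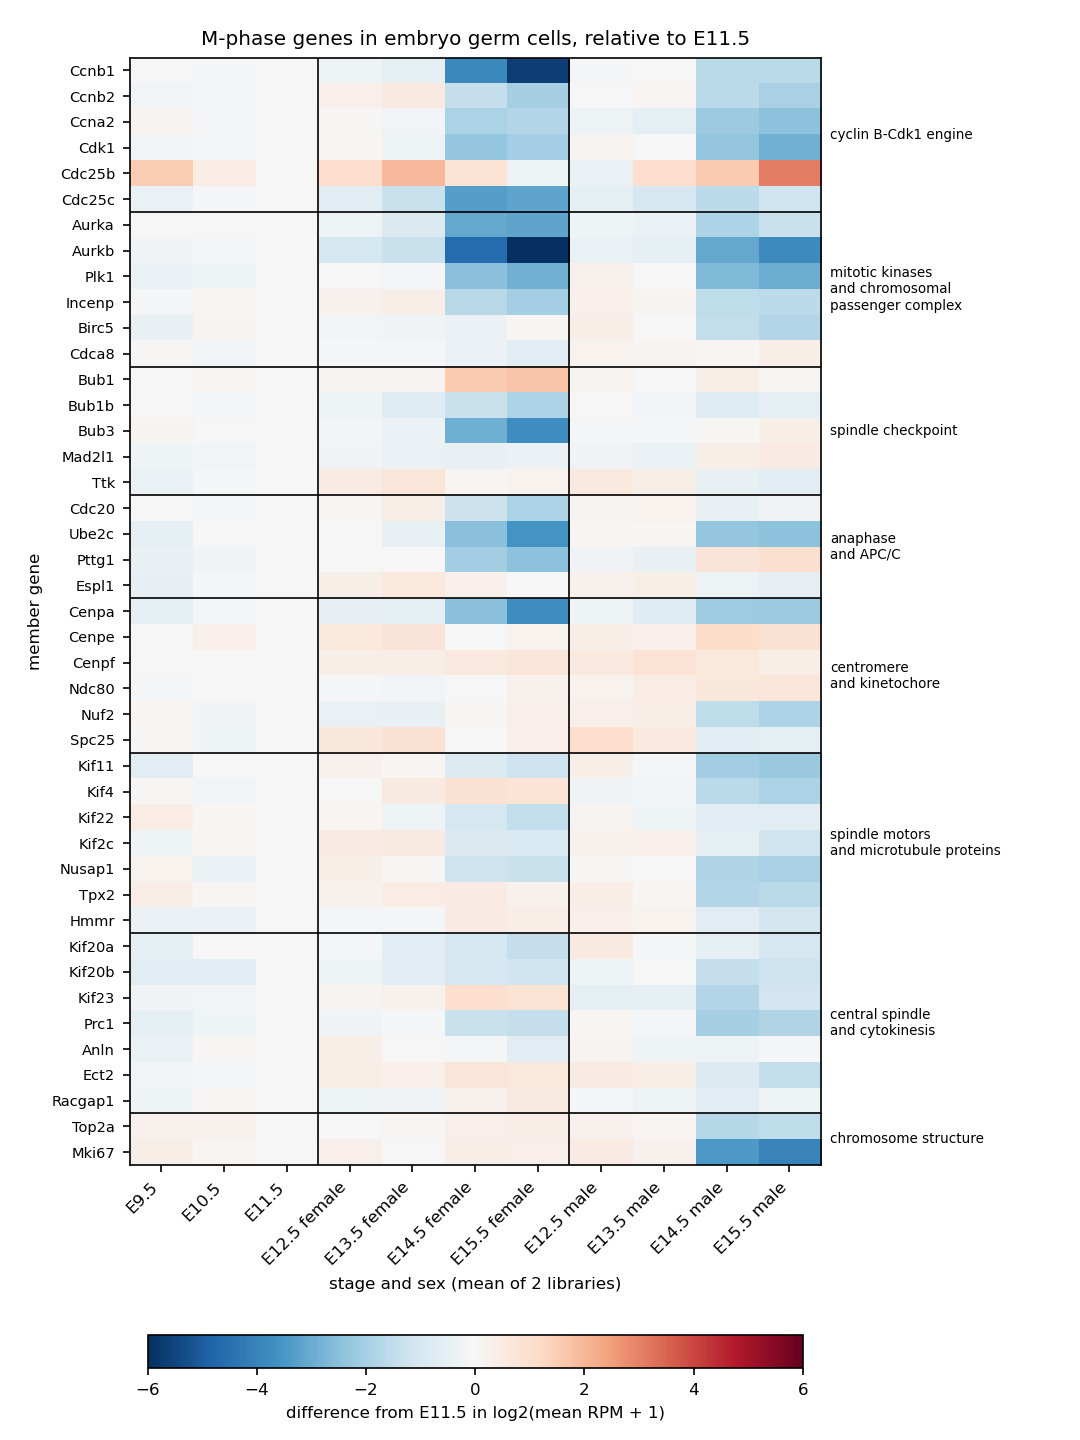
Mean level of each of the 43 M-phase genes (rows, grouped by role) in 11 embryo groups (columns, female before male from E12.5), as the difference from E11.5 in log2(mean RPM + 1). Most columns up to E13.5 are pale; at E15.5 the female column is bluest at Aurkb, Ccnb1, Cenpa and Bub3 and red at Bub1, and the male column is bluest at Mki67, Aurkb, Plk1 and Cdk1 and red at Cdc25b.

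Set against E11.5, 21 of the 43 fell and 1 rose in E15.5 female germ cells (24.5% of all genes called lower and 28.1% higher), with a median log2 fold change of -0.90 over the 43 and 0.10 over all genes. In E15.5 male germ cells 26 fell and 1 rose (18.5% of all genes called lower and 28.6% higher), with a median of -1.19 against 0.21. Both counts of falls lie above the share of all genes called lower, and both counts of rises lie far below the share called higher. Both comparisons use the same E11.5 libraries, so the sexes are compared by the direct test. That test called 11 of the 43 higher and 7 lower in female against male germ cells at E14.5 (22.4% and 25.9% of all genes), and 10 higher and 12 lower at E15.5 (23.7% and 30%). The count called lower at E14.5 lies below the share of all genes, and the other counts lie near it.

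Most of the cyclin B-Cdk1 engine fell in both sexes, and cyclin B1 fell further in female germ cells. At E15.5 against E11.5, 5 of its 6 genes fell in female germ cells, and 5 fell and 1 rose in male germ cells. Ccnb1, cyclin B1, had 534 and 519 RPM at E11.5. In female libraries Ccnb1 had 373 and 363 RPM at E13.5, 43 and 27.4 RPM at E14.5 and 11.1 and 7.66 RPM at E15.5. In male libraries Ccnb1 had 523 and 499.6 RPM at E13.5, 168 and 175 RPM at E14.5 and 179 and 166 RPM at E15.5. Female libraries were below male ones at all 3 stages, and the male values of E14.5 and E15.5 lay together. The log2 fold change at E15.5 against E11.5 was -5.69 ± 0.15, adjusted p = 1.88e-19 in female and -1.60 ± 0.15, adjusted p = 2.77e-09 in male germ cells by limma. The sexes differed by -4.08 ± 0.15, adjusted p = 1.2e-16 at E15.5. Ccnb2, cyclin B2, gave no such split. In female libraries Ccnb2 had 451 and 499 RPM at E13.5, 131 and 109 RPM at E14.5 and 82.4 and 77.9 RPM at E15.5. In male libraries Ccnb2 had 343 and 360.1 RPM at E13.5, 108 and 101 RPM at E14.5 and 89.3 and 78.3 RPM at E15.5. It fell by 2.0 in female and by 1.94 in male germ cells against E11.5, and the libraries of the sexes overlapped at E15.5, with a difference of -0.061 ± 0.11.

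Cdk1, the catalytic partner, had 189.8 and 169 RPM at E11.5. In female libraries Cdk1 had 136 and 151 RPM at E13.5, 33.6 and 37.5 RPM at E14.5 and 49.6 and 36.2 RPM at E15.5. In male libraries Cdk1 had 178 and 184 RPM at E13.5, 29.5 and 41.7 RPM at E14.5 and 29.3 and 17.6 RPM at E15.5. It fell in both sexes against E11.5, with log2 fold changes of -2.06 ± 0.18, adjusted p = 6.35e-10 in female and -2.92 ± 0.18, adjusted p = 2.58e-12 in male germ cells. Female libraries were above male ones at E15.5, by 0.87 ± 0.18, under the size needed for a call. Ccna2, cyclin A2, which acts from S phase into early mitosis, fell by 1.77 in female and by 2.45 in male germ cells. The phosphatases Cdc25b and Cdc25c remove the inhibitory phosphates of Cdk1, and they moved unlike each other. Cdc25c fell to 1.83 and 2.78 RPM in E15.5 female and 12.6 and 11.6 RPM in E15.5 male libraries, against 24.9 and 32.7 RPM at E11.5. It was lower in female than in male germ cells at E15.5 (-2.0 ± 0.33), and its male fall was -0.98 and missed the call without E11.5 replicate 2. Cdc25b rose in male germ cells, to 24.8 and 30.0 RPM at E15.5 against 2.62 and 2.25 RPM at E11.5 (3.04 ± 0.37, adjusted p = 1.59e-07), and was at 2.74 and 0.835 RPM in E15.5 female libraries. It was the 1 member that rose in male germ cells against E11.5, and the sexes did not overlap at E15.5 (-3.43 ± 0.37, female less male). The 0.835 RPM of an E15.5 female library lies within the 3-read floors of embryo libraries, 0.676 to 1.12 RPM. The size of that sex difference thus depends on the added 1 RPM.

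Among the 6 mitotic kinases and chromosomal passenger proteins, 4 fell in female and 5 in male germ cells at E15.5 against E11.5. Aurkb, Aurora B, the kinase of the passenger complex, had 133 and 134 RPM at E11.5. In female libraries Aurkb had 44.4 and 60.6 RPM at E13.5, 4.71 and 4.11 RPM at E14.5 and 1.22 and 0.835 RPM at E15.5. In male libraries Aurkb had 87.3 and 91.9 RPM at E13.5, 15.1 and 15.4 RPM at E14.5 and 11.9 and 5.29 RPM at E15.5. The E15.5 female values amount to 4 and 3 reads, so the fitted change of -6.06 ± 0.24, adjusted p = 1.59e-16 depends on the added 1 RPM. In male germ cells the change was -3.90 ± 0.24, adjusted p = 1.19e-12, and the sexes differed at E15.5 by -2.16 ± 0.24. Aurka, Aurora A, works at centrosomes and spindle poles. In female libraries Aurka had 97.7 and 98.8 RPM at E13.5, 19.1 and 21.1 RPM at E14.5 and 21.3 and 16.7 RPM at E15.5. In male libraries Aurka had 144 and 134 RPM at E13.5, 49.4 and 48.3 RPM at E14.5 and 75.6 and 61.8 RPM at E15.5. It was lower in female germ cells at E14.5 (-1.24 ± 0.14) and E15.5 (-1.80 ± 0.14). Plk1, Polo-like kinase 1, which acts from mitotic entry to cytokinesis, fell in both sexes. In female libraries Plk1 had 99.5 and 109 RPM at E13.5, 24.1 and 14.0 RPM at E14.5 and 13.4 and 15.6 RPM at E15.5. In male libraries Plk1 had 109 and 123 RPM at E13.5, 16.6 and 17.7 RPM at E14.5 and 16.3 and 11.3 RPM at E15.5. Its changes against E11.5 were -2.90 ± 0.20 in female and -2.98 ± 0.20 in male germ cells, and the sex difference at E15.5 was 0.083 ± 0.20. The scaffold Incenp fell by 2.04 in female and by 1.55 in male germ cells. The other passenger subunits, Birc5 (survivin) and Cdca8 (borealin), were not called in female germ cells against E11.5. Birc5 had 115 and 135 RPM in E15.5 female and 31.1 and 37.4 RPM in E15.5 male libraries, against 116 and 117 RPM at E11.5. The male libraries were below all others, with a sex difference of 1.84 ± 0.14, adjusted p = 6.28e-11. Cdca8 had 141 and 95.2 RPM in E15.5 female and 244 and 261 RPM in E15.5 male libraries (-1.12 ± 0.13, and -0.84 without E15.5 female replicate 2).

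Within the spindle checkpoint, 2 of 5 genes fell and 1 rose in female germ cells at E15.5 against E11.5. None was called in male germ cells by limma, with 4 at an unadjusted p under 0.05. Bub3, which carries Bub1 and BubR1 to the kinetochore, had 254 and 267 RPM at E11.5. In female libraries Bub3 had 214 and 193 RPM at E13.5, 43.3 and 23.6 RPM at E14.5 and 19.2 and 17.8 RPM at E15.5. In male libraries Bub3 had 235 and 245 RPM at E13.5, 271 and 279 RPM at E14.5 and 336 and 338 RPM at E15.5. Female libraries lay below every male library at E14.5 and E15.5, and male libraries of those stages lay above both E11.5 libraries. The change against E11.5 was -3.75 ± 0.16, adjusted p = 1.46e-15 in female and 0.37 ± 0.16 in male germ cells. The sex difference was -3.06 ± 0.16, adjusted p = 1.49e-13 at E14.5 and -4.12 ± 0.16, adjusted p = 4.19e-16 at E15.5, the most negative one among the 43 at both stages. Bub1, the checkpoint kinase that also helps protect centromeric cohesion, had 213 and 189.9 RPM at E11.5. In female libraries Bub1 had 212 and 241 RPM at E13.5, 597 and 594 RPM at E14.5 and 719 and 606 RPM at E15.5. In male libraries Bub1 had 226 and 188 RPM at E13.5, 280.5 and 237 RPM at E14.5 and 225 and 211 RPM at E15.5. It was the 1 member that rose in female germ cells against E11.5 (1.71 ± 0.12, adjusted p = 4.16e-12). All E14.5 and E15.5 female libraries lay above every male library (1.60 ± 0.12 at E15.5). Bub1b, which encodes BubR1, fell in female germ cells to 49.3 and 34.8 RPM at E15.5, against 155 and 157 RPM at E11.5 (-1.89 ± 0.18), and had 82.6 and 124 RPM in E15.5 male libraries. Its sex difference of -1.27 ± 0.18 was -0.98 without E15.5 male replicate 2. Mad2l1, the Mad2 effector, had 153 and 156 RPM in E15.5 female and 278 and 273 RPM in E15.5 male libraries, which did not overlap but differed by -0.83 ± 0.10, under the size of a call. Ttk, the Mps1 kinase at the top of the checkpoint, had 91.3 and 93.0 RPM in female and 50.4 and 49.1 RPM in male libraries, a difference of 0.88 ± 0.13, also under that size.

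In the group of anaphase and the anaphase-promoting complex, 3 of 4 genes fell in female and 1 of 4 in male germ cells at E15.5 against E11.5. Pttg1, securin, which holds separase inactive until anaphase, had 151 and 142 RPM at E11.5. In female libraries Pttg1 had 144 and 141 RPM at E13.5, 31.8 and 35.6 RPM at E14.5 and 25.3 and 26.4 RPM at E15.5. In male libraries Pttg1 had 98.4 and 115 RPM at E13.5, 231 and 266 RPM at E14.5 and 303 and 262 RPM at E15.5. The sexes overlapped at neither E14.5 nor E15.5. At E14.5 against E13.5, Pttg1 fell by 2.05 in female germ cells and rose by 1.22 in male germ cells on the log2 scale. The sex difference was -2.84 ± 0.12, adjusted p = 4.42e-15 at E14.5 and -3.40 ± 0.12, adjusted p = 1.1e-16 at E15.5. Cdc20, which activates the complex at anaphase, fell in female germ cells to 50.8 and 48.7 RPM at E15.5, with 159.7 and 166 RPM in E15.5 male and 189 and 192 RPM in E11.5 libraries (sex difference -1.69 ± 0.11). Ube2c, the complex's ubiquitin-conjugating enzyme, had 564 and 590.3 RPM at E11.5. In female libraries Ube2c had 427 and 424 RPM at E13.5, 123 and 79.7 RPM at E14.5 and 56.0 and 38.4 RPM at E15.5. In male libraries Ube2c had 640.4 and 616 RPM at E13.5, 109 and 123 RPM at E14.5 and 117 and 92.1 RPM at E15.5. It fell in both sexes, by 3.61 in female and by 2.46 in male germ cells, and the sexes overlapped at E14.5. The difference of -1.15 ± 0.16 at E15.5 was called but was -0.97 without E15.5 male replicate 1 and -0.88 without E15.5 female replicate 2. Espl1, separase, was called in neither sex, with 133 and 114 RPM in E15.5 female, 82.6 and 92.5 RPM in E15.5 male and 127 and 123 RPM in E11.5 libraries.

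Of the 6 centromere and kinetochore genes, 1 fell in female and 2 fell in male germ cells at E15.5 against E11.5. Cenpa, the histone H3 variant of centromeres, had 572 and 489.9 RPM at E11.5. In female libraries Cenpa had 326 and 370.3 RPM at E13.5, 89.8 and 94.8 RPM at E14.5 and 48.7 and 29.8 RPM at E15.5. In male libraries Cenpa had 315 and 326 RPM at E13.5, 126 and 117 RPM at E14.5 and 122 and 110.5 RPM at E15.5. It fell in both sexes (-3.76 ± 0.15 in female and -2.18 ± 0.15 in male germ cells), and E15.5 female libraries lay below male ones (-1.58 ± 0.15). Nuf2, a subunit of the Ndc80 complex that grips microtubules, had 90.4 and 81.6 RPM in E15.5 female and 17.4 and 19.4 RPM in E15.5 male libraries, against 63.0 and 75.1 RPM at E11.5. It fell in male germ cells, and the sexes differed by 2.16 ± 0.15, adjusted p = 7.95e-12. Its partner Ndc80 had 73.9 and 77.7 RPM in E15.5 female and 90.0 and 120.0 RPM in E15.5 male libraries and was not called. Spc25, a further subunit, had 11.9 and 14.48 RPM in E15.5 female and 7.41 and 6.00 RPM in E15.5 male libraries, also without a call. Cenpe, a kinetochore motor, was lower in female germ cells at E14.5, with 37.4 and 47.1 RPM in female and 90.4 and 93.7 RPM in male libraries (-1.11 ± 0.16, and -0.95 without E14.5 female replicate 1). At E15.5 the sexes differed in it by -0.70 ± 0.16. Cenpf, a large protein of the outer kinetochore, had 254 and 225 RPM in E15.5 female and 209 and 181 RPM in E15.5 male libraries, a difference of 0.30 ± 0.12.

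Of the 7 spindle motors and microtubule proteins, 3 fell in female and 6 in male germ cells at E15.5 against E11.5, and 3 were higher in female than in male germ cells at E15.5. Kif4, a chromokinesin gene on chromosome X, had 33.6 and 49.7 RPM at E11.5. In female libraries Kif4 had 63.7 and 60.3 RPM at E13.5, 73.9 and 84.6 RPM at E14.5 and 84.6 and 63.7 RPM at E15.5. In male libraries Kif4 had 38.4 and 35.4 RPM at E13.5, 14.46 and 11.4 RPM at E14.5 and 14.1 and 7.06 RPM at E15.5. Every female library of these stages lay above every male library of its stage, by 2.53 ± 0.25, adjusted p = 4.2e-09 at E14.5 and 2.76 ± 0.25, adjusted p = 7.45e-10 at E15.5. Tpx2, which activates Aurora A and nucleates spindle microtubules, had 137 and 95.5 RPM in E15.5 female and 28.2 and 32.8 RPM in E15.5 male libraries, against 109 and 84.0 RPM at E11.5 (sex difference 1.88 ± 0.17). Hmmr, a spindle-pole protein, was higher in female germ cells at E15.5 (1.55 ± 0.27) and at E14.5 (1.15 ± 0.27, and 0.88 without E14.5 female replicate 2). Its male fall against E11.5 (-1.16 ± 0.27) was -0.71 without E15.5 male replicate 2. Kif11, the Eg5 motor that pushes spindle poles apart, fell by 1.23 in female and by 2.23 in male germ cells, and was higher in female germ cells at E14.5 (1.28 ± 0.21). Nusap1, which bundles spindle microtubules, fell by 1.36 in female and by 1.97 in male germ cells. Kif22, a motor on chromosome arms, fell in female germ cells (-1.48 ± 0.15) and was -0.62 ± 0.15 in male ones. Kif2c, a microtubule depolymerase at centromeres, fell in male germ cells (-1.19 ± 0.17) and was -0.90 ± 0.17 in female ones; neither Kif22 nor Kif2c was called between the sexes at E15.5.

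Among the 7 genes of the central spindle and cytokinesis, 3 fell in female and 5 in male germ cells at E15.5 against E11.5. Kif23, the motor of centralspindlin, had 67.2 and 76 RPM at E11.5. In female libraries Kif23 had 87.7 and 86.6 RPM at E13.5, 150.2 and 143 RPM at E14.5 and 147 and 104 RPM at E15.5. In male libraries Kif23 had 43.2 and 53.2 RPM at E13.5, 19.6 and 22 RPM at E14.5 and 31.9 and 32.1 RPM at E15.5. Female libraries lay above male ones at all 3 stages, by 2.76 ± 0.17, adjusted p = 1.1e-12 at E14.5 and 1.92 ± 0.17, adjusted p = 4.29e-10 at E15.5. Racgap1, its partner in centralspindlin, had 211 and 196 RPM in E15.5 female and 97.5 and 136 RPM in E15.5 male libraries, which did not overlap but differed by 0.82 ± 0.14, under the size of a call. Ect2, the RhoA exchange factor that centralspindlin recruits, had 192 and 172 RPM in female and 47.4 and 35.6 RPM in male libraries at E15.5, and was higher in female germ cells (2.12 ± 0.14, adjusted p = 2.49e-12). Prc1, which bundles the midzone, and the motors Kif20a and Kif20b fell by 1.51, 1.43 and 1.18 in female germ cells and by 1.88, 1.03 and 1.26 in male germ cells. The male call of Kif20a was lost without E11.5 replicate 1 (-0.997) and without E15.5 male replicate 1 (-0.69). Anln, anillin, which scaffolds the contractile ring, was called in neither sex, with 84.9 and 79.3 RPM in E15.5 female and 133 and 112 RPM in E15.5 male libraries.

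Both genes of chromosome structure were higher in female than in male germ cells at E14.5 and E15.5, and fell in male germ cells against E11.5. Mki67, the Ki-67 protein that coats mitotic chromosomes, had 149 and 151 RPM at E11.5. In female libraries Mki67 had 153 and 143 RPM at E13.5, 181 and 202 RPM at E14.5 and 177 and 196 RPM at E15.5. In male libraries Mki67 had 162 and 194 RPM at E13.5, 15.4 and 10.3 RPM at E14.5 and 6.67 and 9.88 RPM at E15.5. The E14.5 and E15.5 female libraries lay above both E11.5 libraries, and the male ones below all earlier male libraries. The sex difference was 3.82 ± 0.18, adjusted p = 1.01e-14 at E14.5 and 4.36 ± 0.18, adjusted p = 4.69e-16 at E15.5, the most positive one among the 43 at both stages. The change against E11.5 was 0.31 ± 0.18 in female and -4.04 ± 0.18, adjusted p = 4.43e-15 in male germ cells. Top2a, DNA topoisomerase II alpha, which untangles sister chromatids, had 440.4 and 419 RPM at E11.5. In female libraries Top2a had 470.3 and 469.7 RPM at E13.5, 516 and 537 RPM at E14.5 and 611 and 534 RPM at E15.5. In male libraries Top2a had 469.7 and 453 RPM at E13.5, 116 and 149 RPM at E14.5 and 160.1 and 137 RPM at E15.5. It fell in male germ cells (-1.53 ± 0.11 against E11.5), and the female libraries lay above every male library at E14.5 and E15.5 (1.94 ± 0.11, adjusted p = 3.69e-13 at E15.5).

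**Figure D2:**
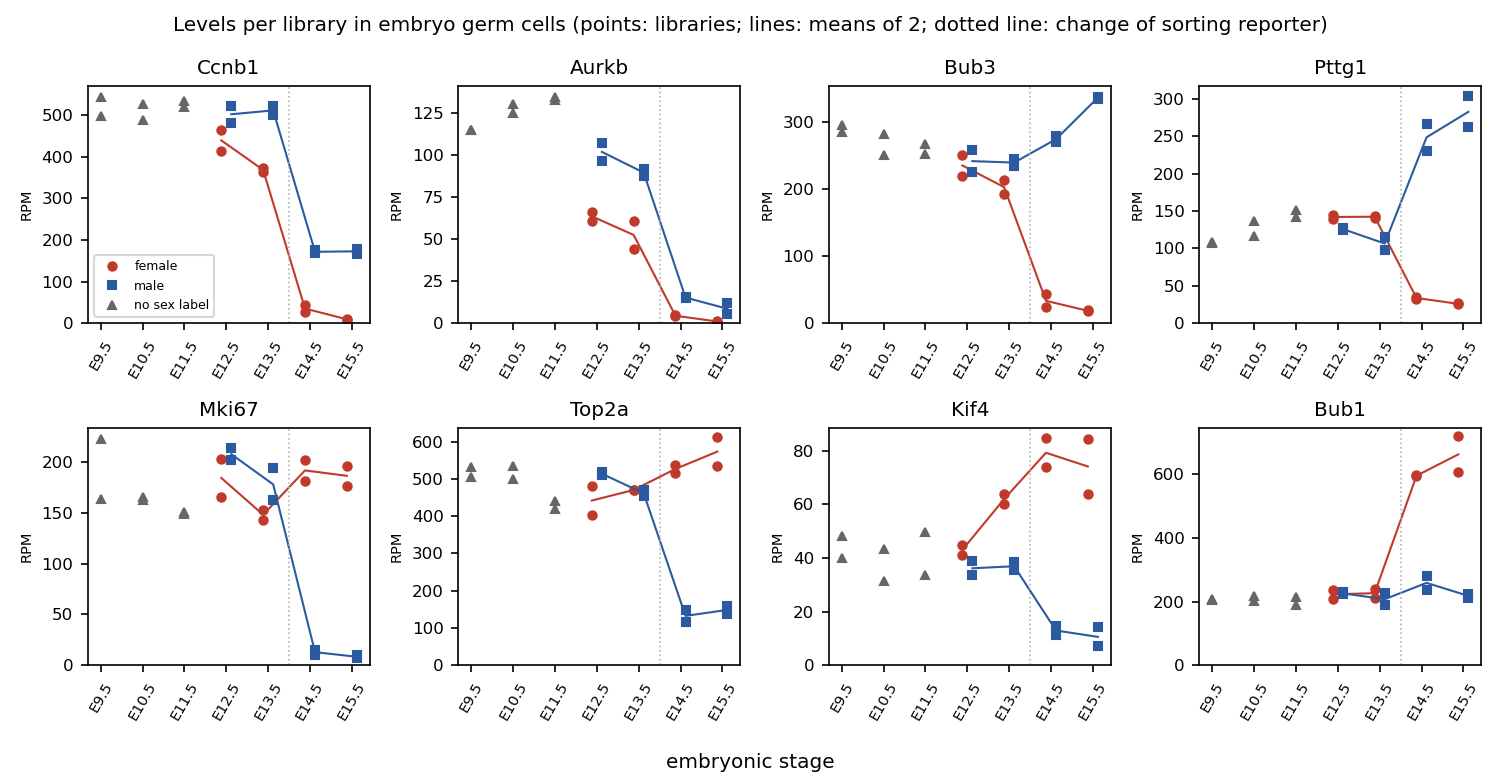
RPM of 8 M-phase genes in each embryo library against embryonic day, female, male and libraries without a sex label, with lines through means of 2 and a dotted line at the change of sorting reporter. Ccnb1, Aurkb, Bub3 and Pttg1 lie lower in female than in male libraries at E15.5, and Mki67, Top2a, Kif4 and Bub1 lie higher.

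**Figure D3:**
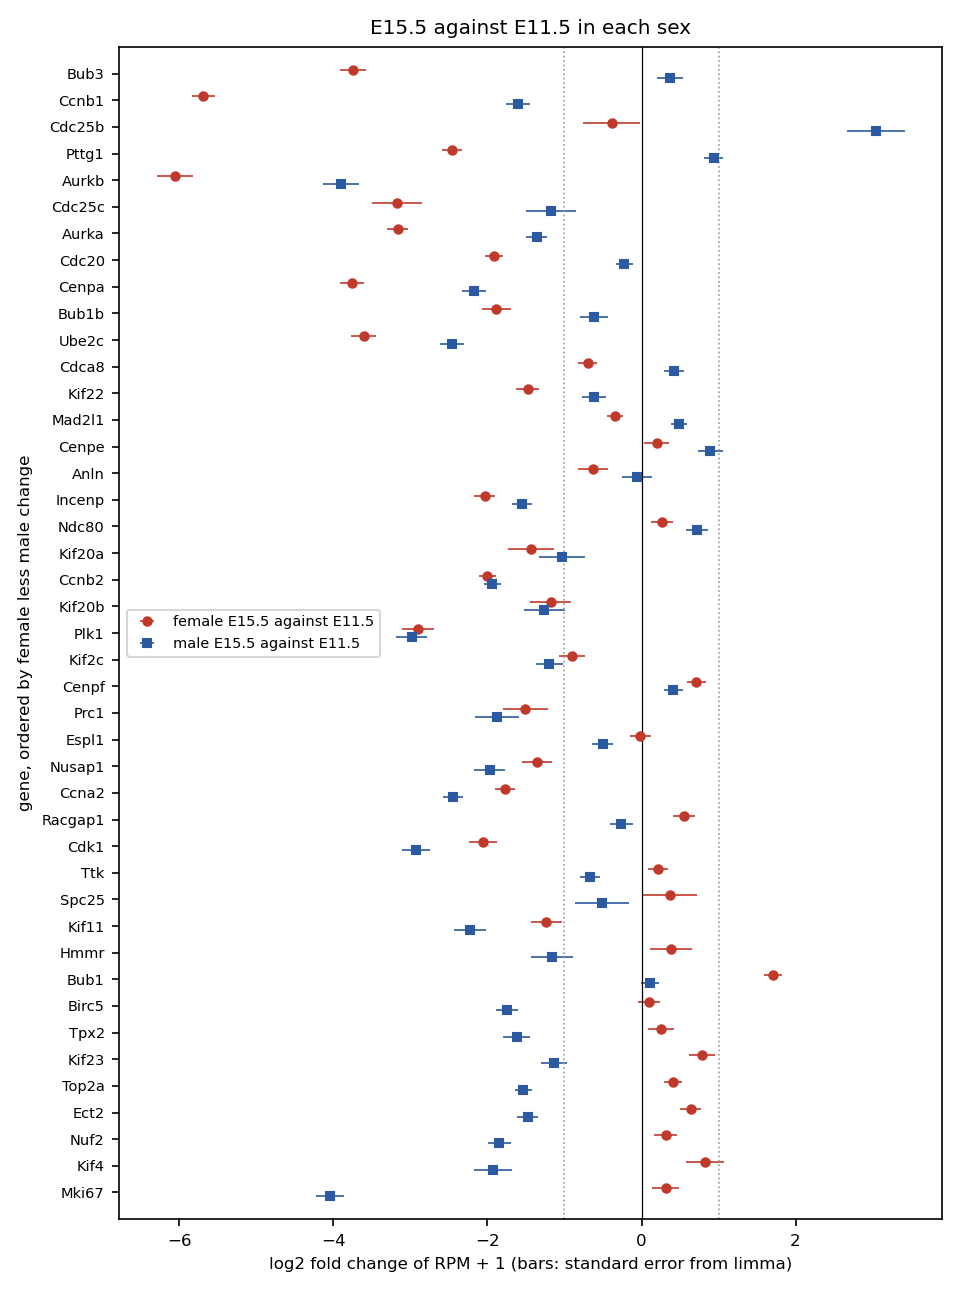
Log2 fold change of RPM + 1 at E15.5 against E11.5 for all 43 M-phase genes in female and male germ cells, with standard errors from limma as bars, ordered by female less male change; dotted lines mark a log2 fold change of 1 either way. Bub3 and Ccnb1 stand at the top, where the female value is lower, and Kif4 and Mki67 at the bottom, where the male value is lower.

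Whether the sexes came to differ between E12.5 and E14.5 was tested in itself. The sex difference at E14.5 less that at E12.5 was called in 19 of the 43, 12 towards female and 7 towards male, against 19.8% and 23.2% of all genes tested. The largest towards female were Mki67 (4.0 ± 0.25), Tpx2 (2.36 ± 0.24) and Nuf2 (2.31 ± 0.21). The largest towards male were Bub3 (-3.03 ± 0.23), Pttg1 (-3.02 ± 0.18) and Cdc25b (-2.16 ± 0.53). Both sexes changed their sorting reporter between those stages, so the contrast sets the same change of reporter in both sexes against each other. Markers of other cell types moved as well. The summed level of 8 fibroblast and feeder genes was 6.69 to 32.8 RPM in E15.5 female, 83.4 to 103 RPM in E15.5 male and 4.72 to 5.45 RPM in E11.5 libraries. That of 10 gonadal somatic genes was 8.29 to 11.48 RPM in E15.5 female, 35.6 to 40.9 RPM in E15.5 male and 3.21 to 4.33 RPM in E11.5 libraries. The 6 fibroblast and the 5 gonadal genes that passed the filter were all called higher in E15.5 male libraries against E11.5, and 1 of each in E15.5 female libraries. Between the sexes at E15.5, 6 of 6 fibroblast and 3 of 5 gonadal genes were called lower in female libraries. With sums this low at E11.5, these genes could hardly pass the filter except through libraries in which they were high. The filter thus largely set these counts of calls. Amh, which defines Sertoli cells, was at 0 in all of these groups, Cyp17a1 was at 0 in E15.5 female and E11.5 libraries, Cyp11a1 in E15.5 female libraries, and Thy1 in E15.5 female and E11.5 libraries. The part of such cells in the M-phase results was not tested. Germ cell markers moved too. Of 7, Dazl and Ddx4 were called higher and Dppa3, Pou5f1, Prdm1, Tfap2c and Dnd1 lower in E15.5 female germ cells against E11.5. Dppa3 had 11.4 and 37.7 RPM in E15.5 female, 1015 and 1411 RPM in E15.5 male and 2678 and 2794 RPM in E11.5 libraries, the last sorted by a Dppa3 reporter. Pou5f1 had 9.43 and 10.0 RPM in E15.5 female, 249 and 295 RPM in E15.5 male and 439.8 and 475 RPM in E11.5 libraries. Ddx4, whose reporter sorted the E15.5 libraries, had 511 and 568 RPM in E15.5 female, 734 and 735 RPM in E15.5 male and 148 and 164 RPM in E11.5 libraries. In E15.5 male germ cells 3 of the 7 were called higher and 3 lower against E11.5. On day 9 of culture RB against CT called 2 higher and 5 lower, and KO against WT 3 higher and 0 lower. Their part in the M-phase results was not tested.

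In culture, most calls of M-phase genes came on day 9 in RB, and in RA 1 was called against CT. RB against CT called 2 of the 43 higher and 8 lower on day 9, against 24.6% and 12.1% of all genes tested, with a median log2 fold change of -0.40 over the 43 and 0.19 over all genes. The count of rises lies below the share of all genes, and that of falls somewhat above it. RA against CT called 1 higher and 0 lower on day 9 (16.3% of all genes in either direction), with a median of -0.090 against 0.20. In that comparison limma gave 12 members an unadjusted and 9 an adjusted p under 0.05. RB against RA, the direct test, called 3 higher and 8 lower on day 9 (13.1% and 11.7% of all genes). On day 5 no member was called for RB against CT (0.674% of all genes; 1 member at an unadjusted p under 0.05), RA against CT (0.244%; 0) or RB against RA (0.0421%; 0). On day 7, 1 was called for RB against CT (19.3%), 0 for RA against CT (5.21%; 6 at an unadjusted p under 0.05) and 0 for RB against RA (4.62%; 8). These comparisons share libraries, so overlaps between them are not counted. The scaling moved the day 9 split of RB against CT. After centring each library on its median, the median of all genes was -0.13 in place of 0.19, and 1 member was called higher and 15 lower.

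Cyclin B1 fell on day 9 in RB. In RPM, Ccnb1 had 548 and 467 on day 5, 355 and 322 on day 7 and 149.5 and 179 on day 9 in RB. In RA it had 599 and 521 on day 5, 448 and 451 on day 7 and 351 and 403 on day 9. In CT it had 616 and 642 on day 3, 623 and 493 on day 5, 434 and 432 on day 7 and 485 and 545 on day 9. RB libraries on day 9 lay below all RA and CT libraries (-1.65 ± 0.15, adjusted p = 2.08e-09 against CT; -1.20 ± 0.15, adjusted p = 7.44e-07 against RA), and RA differed from CT by -0.45 ± 0.15, under the size of a call. Cdc25c fell too, with 9.53 and 11.54 RPM in RB, 35.3 and 32.0 in RA and 36.0 and 34.3 in CT (-1.65 ± 0.23 against CT). Cdk1 had 103 and 74.1 RPM in RB, 271 and 245 in RA and 192 and 159.8 in CT. It fell in RB against RA (-1.55 ± 0.21, adjusted p = 2.72e-06) and, at -0.996, was just short of the size of a call against CT. Ccnb2 and Ccna2 differed by -0.74 ± 0.14 and -0.91 ± 0.13 in RB against CT, also short of it. Cdc25b was the 1 member called for RA against CT on day 9, with 32.5 and 27.6 RPM in RA and 6.43 and 13.6 RPM in CT (1.57 ± 0.45, adjusted p = 0.0112); it was 1.09 without CT replicate 1 and 1.46 without RA replicate 1, and the call was lost in both. The call of Cdc25b for RB against CT on day 7 (1.37 ± 0.45) was lost without CT day 7 replicate 1 (0.75) and without RB day 7 replicate 1 (1.26) or 2 (1.48).

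Among the kinases, Aurkb fell most on day 9, with 22.6 and 31.7 RPM in RB, 100.2 and 88.6 in RA and 112 and 118 in CT. The RB libraries were below the others (-2.06 ± 0.22, adjusted p = 3.1e-08 against CT; -1.78 ± 0.22, adjusted p = 7.62e-07 against RA), and RA differed from CT by -0.29 ± 0.22. Aurka fell to 66.7 and 68.4 RPM in RB, against 145 and 155 RPM in CT (-1.14 ± 0.14), with 99.3 and 115 RPM in RA. Plk1 had 40.9 and 57.7 RPM in RB, 107 and 114 in RA and 73.6 and 93.8 in CT, and was called for RB against RA (-1.17 ± 0.18, and -0.92 without RB replicate 1) but not against CT (-0.76 ± 0.18). Incenp differed by -0.78 ± 0.19, Birc5 by 0.038 ± 0.19 and Cdca8 by 0.081 ± 0.17 in RB against CT, without a call. In the checkpoint, Bub3 fell and Bub1 rose in RB. Bub3 fell to 97.7 and 98.5 RPM in RB, with 192 and 237 RPM in RA and 228 and 265 RPM in CT (-1.31 ± 0.14, adjusted p = 2.63e-08 against CT), and the fall against RA of -1.11 ± 0.14 was -0.96 without RA replicate 2. Bub1 rose to 496 and 619 RPM in RB, with 165 and 202 RPM in RA and 219 and 228 RPM in CT (1.31 ± 0.17, adjusted p = 5.47e-07 against CT, 1.60 ± 0.17 against RA); after median centring the difference from CT was 0.98, short of a call. Bub1b (-0.56 ± 0.22), Mad2l1 (-0.54 ± 0.15) and Ttk (0.18 ± 0.17) were not called.

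Of the anaphase genes, Ube2c fell on day 9 to 232 and 258 RPM in RB, with 583 and 504 RPM in RA and 588 and 627 RPM in CT (-1.31 ± 0.17, adjusted p = 9.35e-07 against CT). Pttg1 fell to 100.5 and 65.5 RPM in RB, with 161 and 184 RPM in RA and 202 and 148 RPM in CT (-1.08 ± 0.26, adjusted p = 0.00127 against CT), a call that was lost without CT replicate 1 (-0.86) or RB replicate 2 (-0.78). Cdc20 differed by -0.70 ± 0.16 and Espl1 by 0.34 ± 0.16, without a call. Cenpa, the centromeric histone, fell to 179 and 185 RPM in RB, with 280.1 and 293 RPM in RA and 425 and 436 RPM in CT (-1.24 ± 0.12, adjusted p = 9.13e-09). Spc25 had 21.8 and 23.3 RPM in RB, 13.2 and 18.6 RPM in RA and 9.0 and 12.9 RPM in CT, without a call (0.998 ± 0.28 against CT), and Cenpe, Ndc80 and Nuf2 were at 0.34, -0.064 and 0.47. Cenpf was called for RB against RA (1.04 ± 0.19), with 187 and 193 RPM in RB and 77.8 and 108 RPM in RA, and lost that call without RA replicate 1 (0.81). None of the 7 spindle motors and microtubule proteins was called for RB against CT by limma, with 6 at an unadjusted p under 0.05 and differences of -0.53 to 0.42. Kif23 rose to 163 and 203 RPM in RB, with 68.7 and 79.9 RPM in RA and 52.7 and 66.3 RPM in CT (1.60 ± 0.19, adjusted p = 2.58e-07 against CT, 1.28 ± 0.19 against RA), and the other 6 genes of the central spindle and cytokinesis were not called. Mki67 had 208 and 243 RPM in RB, 168 and 212 in RA and 188 and 185 in CT, and Top2a had 502 and 562 RPM in RB, 412 and 437 in RA and 461 and 480.2 in CT. Neither was called (0.27 ± 0.20 for Mki67 and 0.17 ± 0.16 for Top2a against CT), and the sign for Mki67 turned after median centring (-0.050).

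**Figure D4:**
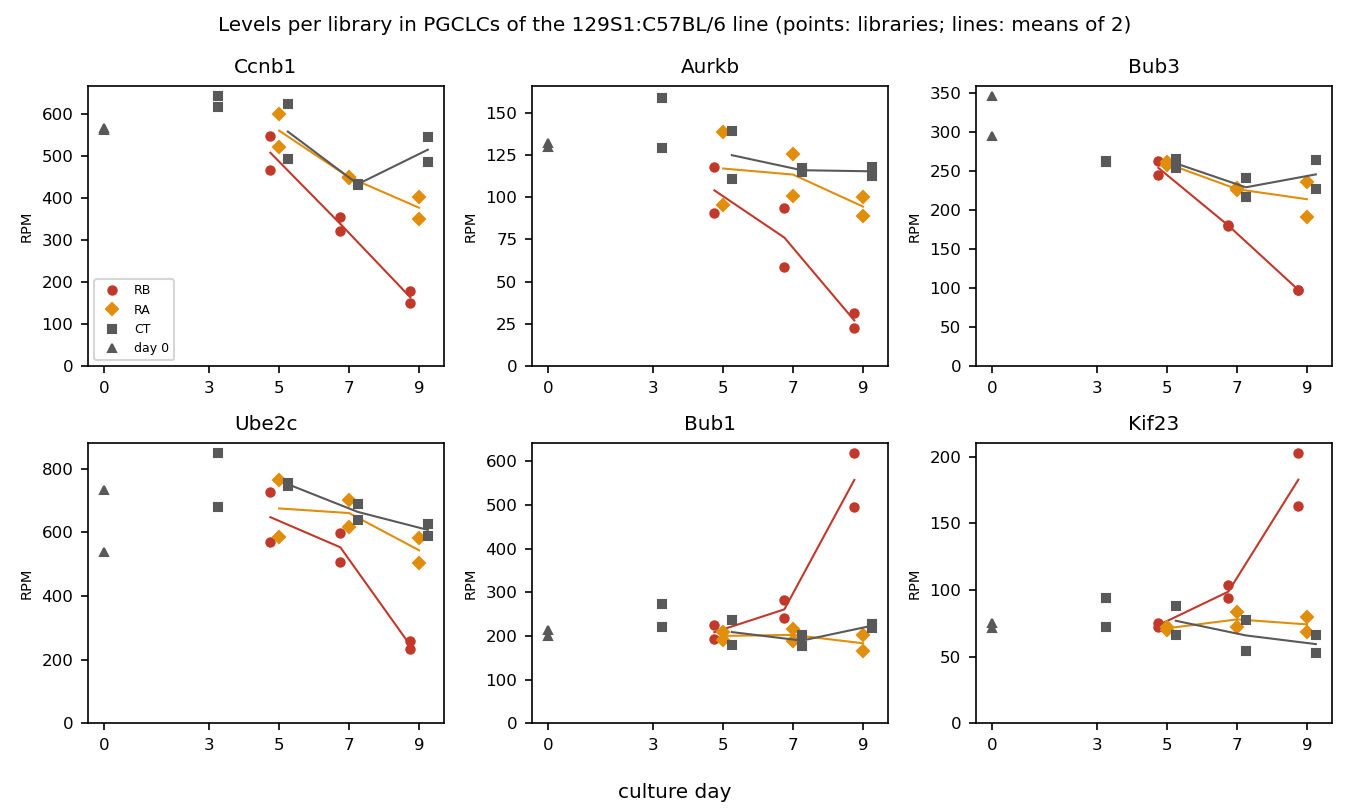
RPM of 6 M-phase genes in each PGCLC library of the 129S1:C57BL/6=1:1 line against culture day, for RB, RA, CT and day 0 cells, with lines through means of 2. On day 9 RB libraries lie below RA and CT for Ccnb1, Aurkb, Bub3 and Ube2c and above them for Bub1 and Kif23; on day 5 the conditions lie together.

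The effect of RB on day 9 less that on day 5 was called in 10 of the 43, 2 upward and 8 downward (20.2% and 9.54% of all genes tested). The largest were Aurkb (-1.80 ± 0.31), Ccnb1 (-1.52 ± 0.21) and Cdc25c (-1.47 ± 0.33) downward and Kif23 (1.65 ± 0.27) upward. Of these 10 calls, 5 were lost under at least 1 alternative. Bub1 was 0.95 after median centring. Without RB day 5 replicate 1, Cenpa was -0.96 and Pttg1 -0.70. Ube2c was -0.91 without RB day 5 replicate 2, and Cdk1 was -0.81 without RB day 9 replicate 2. RB on day 9 against CT on day 3, the start of treatment, gave 3 higher and 12 lower (27.1% and 14% of all genes), among them Aurkb (-2.38 ± 0.22), Pttg1 (-2.11 ± 0.26) and Cdc25c (-2.09 ± 0.23). Median centring made this 0 higher and 19 lower, and made the split of day 9 less day 5 1 upward and 12 downward. CT on day 9 against day 3 gave 1 call, Pttg1 (-1.03 ± 0.26; 2.25% of all genes called), which had 202 and 148 RPM on day 9 and 398 and 314 RPM on day 3. It was lost without any 1 of these 4 libraries, at -1.25 and -0.81 without day 9 replicates 1 and 2 and at -0.86 and -1.20 without day 3 replicates 1 and 2. In the same day 9 libraries the 8 fibroblast and feeder markers summed to 18.2 to 49.6 RPM in RB, 108 to 188 RPM in RA and 38.5 to 97.1 RPM in CT. The gonadal somatic markers summed to 15.7 to 48.8 RPM in RB, 11.7 to 15.6 RPM in RA and 3.56 to 4.5 RPM in CT, with Nr5a1 and Amh at 0 in all 3; their part in the M-phase results was not tested.

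The genes that moved in RB culture were read beside those of the embryo, which share no library with them. All 8 members that fell for RB against CT on day 9 were among the 21 that fell in E15.5 female germ cells against E11.5 (100% of the 8 and 38.1% of the 21): Ccnb1, Cdc25c, Aurka, Aurkb, Bub3, Ube2c, Pttg1 and Cenpa. Over all genes tested in both, the shares of the falls in RB and of the falls in female germ cells that were common to both were 88.0% and 40.8%, near those of the members. Of the 2 that rose, Bub1 also rose in E15.5 female germ cells, and Kif23 was 0.78 ± 0.17 there, short of a call. Ranked by log2 fold change, the 43 had a Spearman rho of 0.94 between RB against CT and E15.5 female against E11.5, beside 0.86 over all 11351 genes tested in both. With E15.5 male against E11.5 it was 0.33, beside 0.45. These rho values describe genes, which are not independent replicates and share library and depth within each experiment. Mki67 was 0.27 ± 0.20 for RB against CT, 0.31 ± 0.18 in female and -4.04 ± 0.18 in male germ cells.

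The knockout tested whether Stra8, a gene that germ cells need for meiotic entry, bears on these changes, and Stra8 itself was read first. On day 9 it had 105, 122, 77.9 and 483 RPM in the KO libraries (lines SK1, SK1, SK2 and SK3, in that order for every gene) and 1813 and 1717 RPM in the WT libraries. On day 7 it had 33.3, 30.0, 29.3 and 204 RPM in KO and 1415 and 1439 RPM in WT libraries, and on day 5 9.38, 1.72, 5.83 and 11 RPM in KO and 193 and 192 RPM in WT libraries. On day 3, in CT, it was under 1 RPM in every library. KO libraries lay below WT on days 5, 7 and 9, with SK3 the highest KO line on days 7 and 9 (-3.56 ± 0.57, adjusted p = 7.53e-06 on day 9 by limma). What was deleted in Stra8 is not given, and a 3′ read outside it would still count, so the reads left in KO libraries check nothing. Sycp3, an axis protein of meiotic chromosomes, had 232, 212, 166 and 195 RPM in KO and 1455 and 1603 RPM in WT libraries on day 9 (-2.93 ± 0.37, adjusted p = 2e-07).

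KO against WT called none of the 43 on day 3 (0.00819% of all genes tested; 0 members at an unadjusted p under 0.05 in limma), day 5 (0.0164%; 3) or day 7 (8.73%; 14). For day 7, 7 members had an adjusted p under 0.05, all short of the size of a call. On day 9 KO against WT called 2 higher and 2 lower, against 10.8% and 8.35% of all genes. Both counts of calls lie below the share of all genes. By limma, however, 25 members had an unadjusted and 23 an adjusted p under 0.05 on day 9. Most of these 23 were short of the size of a call, so the calls do not show that the 43 responded less than other genes. Medians on the log2 scale were 0.27 for the 43 and 0.089 for the whole set of tested genes. Plk1 rose in KO cells, with 151, 172, 202 and 149 RPM in KO and 78.9 and 73.0 RPM in WT libraries (1.13 ± 0.14, adjusted p = 7.38e-08). Bub3 rose likewise, with 229.7, 203, 159 and 216 RPM in KO and 99.1 and 87.1 RPM in WT libraries (1.10 ± 0.14, adjusted p = 1.24e-07). For both genes every KO library lay above both WT libraries. Bub1 fell, with 259, 282, 233 and 319.9 RPM in KO and 578 and 711 RPM in WT libraries (-1.24 ± 0.12, adjusted p = 1.42e-09). Kif23 fell, with 123, 134, 140.0 and 113 RPM in KO and 248 and 265 RPM in WT libraries (-1.01 ± 0.14, adjusted p = 8.61e-07), and all KO libraries were below WT for both genes. The call of Kif23 rests on its size: it was -0.99 without the first SK1 library, -0.95 without SK3 and -0.96 without WT replicate 2. Quantile normalization called 4 higher and 2 lower.

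Other members had KO libraries clear of WT on day 9 by less than the size of a call. Ccnb1 had 313, 301, 269 and 345 RPM in KO and 168 and 143 RPM in WT libraries (0.97 ± 0.12), and Cdk1 had 198, 195, 209 and 243 RPM in KO and 118 and 124 RPM in WT libraries (0.79 ± 0.14). Ube2c had 510.4, 577, 615 and 589 RPM in KO and 316 and 291 RPM in WT libraries (0.91 ± 0.10). Aurka had 115, 125, 106 and 121 RPM in KO and 68.0 and 60.4 RPM in WT libraries (0.86 ± 0.12), and Aurkb had 50.0, 57.4, 55.0 and 58.0 RPM in KO and 36.1 and 38.4 RPM in WT libraries (0.55 ± 0.17). In all 5 of these genes each KO library was above both WT libraries. Mki67 had 198, 182, 159 and 179 RPM in KO and 311 and 334 RPM in WT libraries (-0.84 ± 0.12), and Top2a had 391, 359, 351 and 387 RPM in KO and 625 and 719.7 RPM in WT libraries (-0.85 ± 0.10). For both, each KO library was below both WT libraries. All 6 engine genes had a positive log2 fold change, 0.63 to 0.97, and so missed the size of a call. Limma gave 5 of them an unadjusted p under 0.05.

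Over the culture, WT cells in RB on day 9 against CT on day 3 gave 3 members higher and 11 lower (27.8% and 15.9% of all genes tested), and KO cells gave 1 higher and 3 lower (25.6% and 8.34%). In WT cells Ccnb1 fell by 2.07, Cdc25c by 2.26, Aurkb by 2.04 and Bub3 by 1.47 on the log2 scale, and Bub1 rose by 1.27 and Kif23 by 1.27. Cdk1 was -0.98 ± 0.16, Plk1 -0.94 ± 0.16 and Mki67 0.079 ± 0.14, without a call. In KO cells Ccnb1 fell by 1.09, Cdc25c by 1.41 and Aurkb by 1.41, and Cdc25b rose by 1.97. In KO cells without a call, Bub1 was 0.065 ± 0.10, Kif23 0.32 ± 0.11, Bub3 -0.57 ± 0.11, Cdk1 -0.18 ± 0.12, Plk1 0.26 ± 0.11 and Mki67 -0.66 ± 0.10. Ccnb1, Cdc25c and Aurkb thus fell in both genotypes, each against its own day 3; under quantile normalization the KO change of Ccnb1 was -0.93 and missed the call. The WT call of Cdc25b (1.51 ± 0.42) was 1.06 without WT day 9 replicate 1 and was lost. That of Cdc20 (-1.02 ± 0.17) was -0.75 without WT day 9 replicate 2, and that of Incenp (-1.01 ± 0.15) was -0.81 without that library and -0.93 without WT day 3 replicate 1. The difference of the genotypes in this change was tested as KO against WT on day 9 less day 3, which called Plk1 (1.20 ± 0.19, adjusted p = 3e-05) and Bub1 (-1.20 ± 0.17, adjusted p = 5.07e-06), against 8.66% of all genes higher and 6.2% lower. In the same test Ccnb1 was 0.98 ± 0.17, Kif23 -0.96 ± 0.20, Bub3 0.91 ± 0.19 and Aurkb 0.63 ± 0.24, short of a call. Without 1 library this count was 2 to 6, with 6 without WT day 3 replicate 2, 5 without WT day 9 replicate 1 or SK2 of day 9, and 4 without SK2 of day 3. Median centring gave 1 member higher and 10 lower in KO cells on day 9 against day 3 and 3 higher and 18 lower in WT cells. For the difference of the genotypes, median centring gave 1 higher and 2 lower, and quantile normalization 4 and 1.

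**Figure D5:**
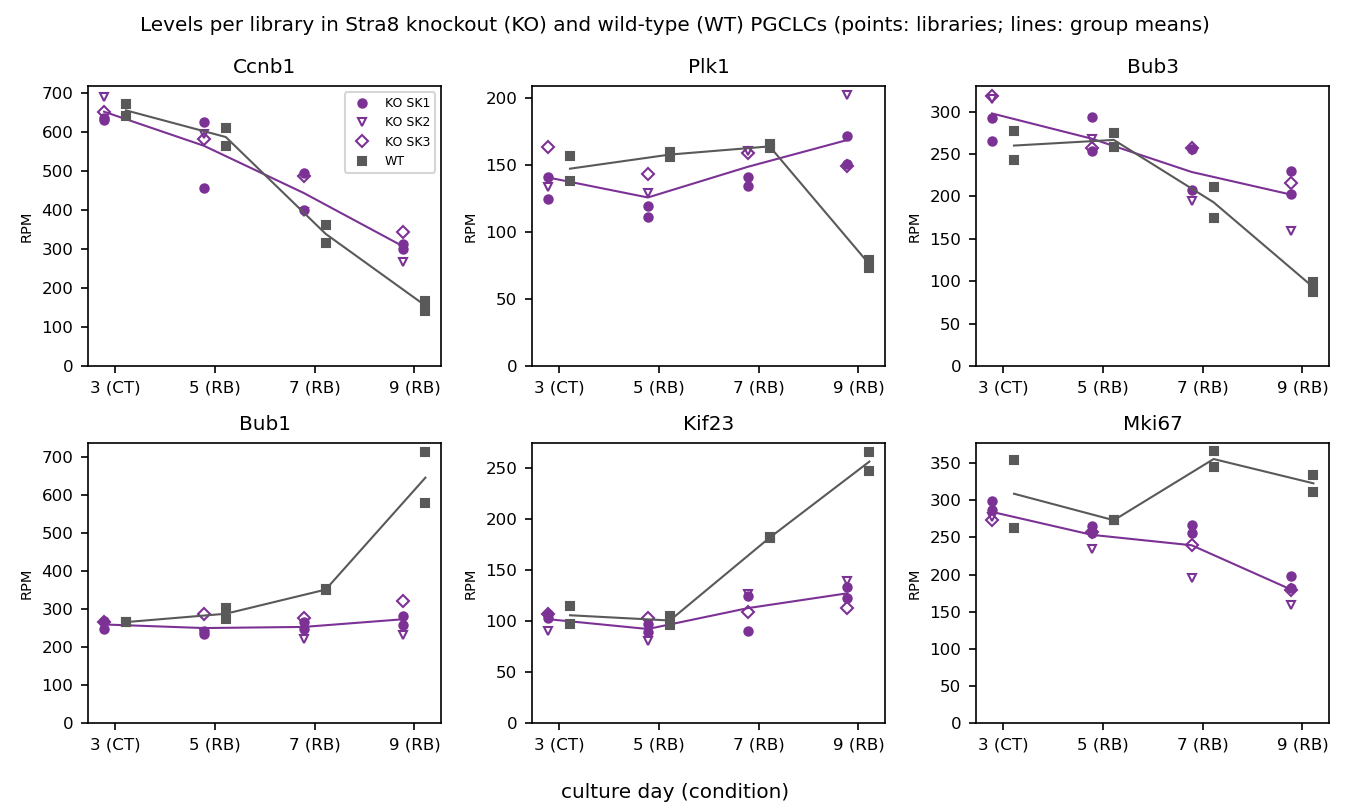
RPM of 6 M-phase genes in each KO library (by line) and WT library of the DBA/2:C57BL/6=1:1 line on day 3 (CT) and days 5, 7 and 9 (RB), with lines through group means. KO and WT libraries lie together on day 3; on day 9 KO libraries lie above WT for Ccnb1, Plk1 and Bub3 and below WT for Bub1, Kif23 and Mki67.

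The WT cells of this line can be read beside those of the 129S1:C57BL/6=1:1 line, with which they share no library. Of 3 members higher and 11 lower in WT on day 9 against day 3, all 3 and 10 were also called in the 129S1:C57BL/6=1:1 line in RB on day 9 against CT on day 3 (all of both lists of 3; 90.9% of 11 and 83.3% of 12). Over all genes tested in both lines, the shared calls were 83.6% and 82.7% of the WT and the 129S1:C57BL/6=1:1 rises and 67.7% and 79.5% of their falls. All 3 rises, Cdc25b, Bub1 and Kif23, lost the call in the 129S1:C57BL/6=1:1 line after median centring, at 0.97, 0.81 and 0.77; Cdc25b and Kif23 also lost it without 1 library, at 0.95 and 0.94 without CT day 3 replicate 2, Cdc25b at 0.99 without RB day 9 replicate 1 and Kif23 at 0.97 without RB day 9 replicate 2. All 11 that fell in WT cells were among the 21 that fell in E15.5 female germ cells (100% and 52.4%), beside 85.5% and 54.1% over all genes tested in both. The rank correlation of the 43 between the WT change and the embryo change was 0.89 for female germ cells, beside 0.85 over all 11484 genes, and 0.32 for male germ cells, beside 0.48. Between KO against WT and RB against CT on day 9, which share no library, it was -0.77, beside -0.58 over all 11492 genes. The summed markers on day 9 were 12.4 to 23.0 RPM in KO and 11.2 to 23.5 RPM in WT libraries for fibroblast and feeder genes, and 20.9 to 28.7 RPM in KO and 19.3 to 21.1 RPM in WT libraries for gonadal somatic genes; their part in these results was not tested.

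Other genes of the same processes were read from 2 further lists. Of 35 other mitotic genes, 6 were called higher and 14 lower in E15.5 female germ cells against E11.5 (median -0.80), and 0 higher and 16 lower in male germ cells (median -0.80). Over all genes 28.1% were called higher and 24.5% lower in female germ cells (median 0.10), and 28.6% higher and 18.5% lower in male germ cells (median 0.21). The test of female against male at E15.5 called 10 higher and 6 lower, beside 23.7% and 30% of all genes. In that test the largest differences among the called genes were those of Cenpk, a centromere protein (3.15), and Spc24, a subunit of the Ndc80 complex (3.07), both higher in female germ cells, and Cks2, a subunit of Cdk1 complexes, which was lower (-1.64). RB against CT on day 9 called 1 higher, Ckap2l, and 7 lower (median -0.41; 24.6% and 12.1% of all genes), and KO against WT on day 9 called 0 higher and 1 lower, Cenpk (10.8% and 8.35% of all genes). Ckap2l, a spindle protein, lost its call without RB replicate 2 (0.98), after median centring (0.72) and under quantile normalization (0.80), and Cenpk lost its own without SK3 (-0.98). Of 17 regulators of mitotic entry and exit, 2 were higher and 7 lower in E15.5 female germ cells (median 0.17), and 1 higher and 5 lower in male germ cells (median -0.58), beside the shares of all genes given above. RB against CT called 1 higher and 4 lower and KO against WT 1 higher and 0 lower. The male rise, Ensa, was lost without E11.5 replicate 2 (0.73), without E15.5 male replicate 2 (0.89) and after median centring (0.87), and the KO rise, Cks1b, after median centring (0.98). Mybl2, the B-Myb factor that joins MuvB to switch on M-phase genes, fell by 3.68 in female germ cells and by 1.88 in RB against CT, and Fbxo5, which encodes the inhibitor Emi1 of the anaphase-promoting complex, fell by 3.77 in male germ cells. Cdc14b, a phosphatase, rose by 2.32 in female germ cells and by 2.38 in RB.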

How the data were processed

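Total RNA of sorted germ cells was amplified as cDNA and sequenced from the 3′ end, per the labels' protocols. The deposited table holds a signal per gene and library, RPM as scaled by the authors; the submitters' processing notes name cutadapt 1.11, TopHat 1.4.1, Bowtie 1.0.1, Cufflinks 2.2.0 and the build mm10. The 96 spike-in rows were left out; 2777 values under 0.001 RPM were set to 0, and 0 columns lacked a sample. Depth, from the step of 1 read, was 2687349 to 4437955 reads for embryo libraries, 2518143 to 4286988 for those of the 129S1:C57BL/6=1:1 line and 1080201 to 15624927 for those of the DBA/2:C57BL/6=1:1 line; 81.0 to 93.1% of low values were whole reads within 0.05 of a read, too few for a count test. Genes at 5 RPM or more in at least 2 libraries were kept (12567, 11873 and 12206 genes), and limma 3.58.1 in R 4.3.3 (lmFit, eBayes with trend) was fitted per experiment to log2(RPM + 1) with 1 mean per group, adjusted over all genes by Benjamini-Hochberg; the scripts were tested on simulated data. Tables, sequences and figures used Python 3.11.15, pandas 2.3.3 and matplotlib 3.10.9. Alternatives were a pseudocount of 0.5, a filter at 20 RPM, no filter, median centring, quantile normalization, a replicate block, averaging the SK1 libraries and leaving out each library. Any member could be named; Ccnb1, Cdk1, Plk1, Aurkb and Mki67 were named in each main comparison, and other genes by size of change, up to 3 each way. The members, lists and tests were chosen with earlier results of these data known. Groups of 1 library (0R3B and the C57BL/6 line) were given as values only.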

Additional observations from a re-analysis of the deposited data

Results flagged for a closer look

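In the 4 KO libraries of a day, 1 library stood apart from the other 3 by a Dixon test at the 95% level in 6 of 44 tests over 11 genes, where chance gives about 1 in 20. Stra8 in line SK3 was 204 RPM on day 7, with 29.3 to 33.3 RPM in the other KO libraries, and 483 RPM on day 9, with 77.9 to 122 RPM in the others. Bub1 in SK3 was 288 RPM on day 5, with 234 to 241 RPM in the others. Cdc25b in the first SK1 library was 41.2 RPM on day 9, with 25.8 to 27.8 RPM in the others. Cdk1 in the second SK1 library was 338 RPM on day 5, with 220.3 to 223 RPM in the others, and in the first SK1 library it was 243 RPM on day 7, with 281 to 285 RPM in the others. Without SK3, the day 9 difference of KO against WT was -1.32 for Bub1 and 1.18 for Plk1.

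Effects that differed between times by a test of the difference itself were the sex difference, at E14.5 less E12.5, in 19 of the 43; the RB effect, on day 9 less day 5, in 10; and the knockout effect, on day 9 less day 3, in 2, Plk1 and Bub1.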

How the results depend on the processing

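Over 290 single-gene differences, 261 of them called, 2990 of 3131 values under the alternatives kept their direction and their side of the threshold, 108 lost and 21 gained a call, and 12 turned, none of a called gene. The turned ones were Cdk1 in female against male at E14.5 (-0.068 under quantile normalization, -0.23 to 0.26 without 1 library), Plk1 at E14.5 (-0.28 to 0.47 without 1 library) and E15.5 (-0.16 to 0.33), Mki67 under median centring in RB against CT (-0.050), RA against CT (-0.25; -0.15 to 0.19 without 1 library) and WT day 9 against day 3 (-0.19; -0.14 to 0.29), and Plk1 under median centring in KO day 9 against day 3 (-0.12). Counts of called members moved by over 1.5 times as follows, and the cause was not tested: male E15.5 against E14.5 was 2 under quantile normalization against 1; RB against CT on day 7 was 0 without a filter, under median centring and under quantile normalization, against 1; CT day 9 against day 3 was 0 without a filter and under quantile normalization, against 1; RB against CT on day 9 was 16 under median centring against 10; KO day 9 against day 3 was 11 under median centring against 4; and the difference of the genotypes was 5 under quantile normalization against 2. The split for male E15.5 against E14.5 was 1 higher and 1 lower under quantile normalization, against 1 and 0. Without 1 library in turn the counts were 0 to 1 for female against male at E12.5, male E13.5 against E12.5, male E15.5 against E14.5, RB against CT and RA against CT on day 7 and RA against CT on day 9, 2 to 5 for female E15.5 against E14.5, 0 to 0 for CT day 9 against day 3, and 2 to 6 for the difference of the genotypes. In the embryo the replicate numbers did not pair the samples: deviations of same-numbered libraries correlated above 0.1 in 0 of 55 pairs of groups. In the 129S1:C57BL/6=1:1 line they did so in 11 of 55 pairs, with a correlation of 0.239 at most. In the DBA/2:C57BL/6=1:1 line they did so in 8 of 28 pairs, with 0.129 at most. Same-numbered culture libraries were thus weakly linked, and the main fits left this link out. With a replicate block KO against WT on day 9 called 3 against 4, Kif23 being -0.98. The block followed the last number of each label, so line SK3 was set with the libraries numbered 1. Whether SK3 belongs with them was not tested. Under the block the S phase gene Mcm7 lost its rise for KO against WT on day 9 (0.997), and no count moved by over 1.5 times. Averaging the SK1 libraries left 4 calls on day 9. Groups of 2 libraries without 1 of them leave a lone library that is assumed to vary like the others, and genes near the 3-read floor have understated changes.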

Other observations

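Most of the S phase genes listed were called lower in both sexes. Of 20 such genes, 2 were higher and 12 lower in E15.5 female germ cells against E11.5 (median -1.4). Over all genes 28.1% were higher and 24.5% lower (median 0.10). In male germ cells 0 were higher and 15 lower (median -1.39), beside 28.6% and 18.5% of all genes (median 0.21). Female against male at E15.5 called 10 higher and 4 lower, beside 23.7% and 30% of all genes. Ccne2, cyclin E2, was higher in female germ cells by 4.45, and Mcm7, of the replicative helicase, was lower at -2.32. In female germ cells Tyms, thymidylate synthase, fell by 4.23 and Mcm7 by 3.28, and in male germ cells Rrm2, of ribonucleotide reductase, fell by 4.75 and Ccne1, cyclin E1, by 4.21. In culture RB against CT on day 9 called 1 higher, Ccne2 (3.69), and 5 lower, beside 24.6% and 12.1% of all genes. KO against WT on day 9 called 2 higher and 1 lower, Ccne2 (-2.91), beside 10.8% and 8.35%. The rises for KO against WT, Ccne1 and Mcm7, were both lost without WT day 9 replicate 2, at 0.79 and 0.90. Mcm7 was lost without SK3 (0.96) and after median centring (0.97) too.

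The groups with 1 library give values without a test. The 0R3B library on day 9 had 47.1 RPM of Ccnb1, 13.8 of Aurkb, 52.8 of Bub3, 101 of Ube2c, 739.8 of Bub1, 339 of Kif23 and 298 of Mki67. Its Ccnb1, Aurkb, Bub3 and Ube2c lay below both RB libraries of that day, and its Bub1, Kif23 and Mki67 above both. In the C57BL/6 line, which adds Gtrosa26tm1Sor/0, the c7RB library on day 9 had 393 RPM of Ccnb1, 534 of Ccnb2, 86.2 of Aurkb, 220.4 of Bub3, 252 of Bub1 and 127 of Kif23. The c7CT library of that day had 386 RPM of Ccnb1, 289.7 of Ccnb2, 107 of Aurkb, 191 of Bub3, 166 of Bub1 and 79.4 of Kif23. Stra8 was at 27.5 RPM in c7RB and 24.5 RPM in c7CT.

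The changes of members with and without a CHR, meaning the letters TTTGAA on either strand, in their promoter entry are given here as values. In E15.5 female germ cells against E11.5, 0 of 28 genes with a CHR rose and 13 fell (median -0.80), and of 9 without, 1 rose and 3 fell (median -0.34), beside 28.1% of all genes higher and 24.5% lower. In male germ cells 0 of 28 rose and 16 fell (median -1.18), and of 9 without, 1 rose and 4 fell (median 0.11), beside 28.6% and 18.5%.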
